A study of Mus musculus with 36 samples.

Results

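A set of 2325 chromatin regions was open in mesenchymal stem cells (MSCs) of vertebral bone marrow (vBM-MSCs) and was listed in none of the other 3 MSC populations, which came from femoral bone marrow (fBM-MSCs), adipose tissue (A-MSCs) and lung (P-MSCs). Regions came from the deposited lists of ATAC-seq peaks. ATAC-seq uses the Tn5 transposase to insert sequencing adapters where DNA is accessible, so that a pile of reads marks open chromatin. Lines with the same chromosome, start and end were merged into 1 region. A region was kept if its −log10 q value was above 7 at any summit in the vBM-MSC list and if it overlapped, by 1 bp or more, no line of the 3 other lists at any q. The kept regions are called vBM-only regions here and made up 4.58% of the 50763 vBM-MSC regions past that threshold. The other lists gave 5032 fBM-only, 2806 A-only and 2216 P-only regions by the same rule. These regions were chosen by peak q values and overlaps, so their absence from the other lists is a description and carries no test.

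All 4 populations were grown from C57BL6/J mice that were 8 weeks old and carried no stated transgene or treatment. Crushed femurs and vertebrae, adipose tissue and lung gave cells that were expanded in MesenCult medium for at most 3 passages, so the data describe cultured cells. ATAC-seq reads of each tissue were pooled into 1 peak list (6 deposited samples a tissue, as 3 replicates of 2 runs), and the regions therefore have no replicate error. RNA-seq of the same populations was available as 2 vBM-MSC, 3 fBM-MSC, 3 A-MSC and 3 P-MSC libraries with 19569650 to 40517739 expected counts each. The tissues were collected from the same 3 mice, but the sources used here do not say which libraries came from the same animal.

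Accessible sites away from promoters often act as enhancers, which are DNA elements that bind transcription factors and raise the transcription of genes at a distance. Sets of such sites differ between cell types more than promoters do. The vertebrae and the surrounding trunk tissue arise from somites, whereas the femur arises from the lateral plate mesoderm of the limb bud. Cultured MSCs are known to keep some of the positional gene expression of their site of origin, with Pax, Zic and Hox transcription factors as examples.

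The bases at the summit of 10 vBM-only regions are shown as examples, and their nearest genes are named in the RNA results below. The first 8 belong to genes named by a rule and are ordered by peak height, and the Zic1 and Dio3 promoters were added after their values were seen. Sequences were read from the RefSeq GRCm38 assembly (the same coordinates as mm10) on the + strand. Capitals mark matches on either strand to the letters TGANTCA (AP-1), TTGCNNAA (C/EBP), GGAATG (TEAD), TTGGCA (NFI), CAGCAGG (ZIC) or TTCNNNGAA (STAT). In the Angpt1 sequence a C/EBP and an NFI match overlap.
Col11a1 intron, chr3:114082163-114082363: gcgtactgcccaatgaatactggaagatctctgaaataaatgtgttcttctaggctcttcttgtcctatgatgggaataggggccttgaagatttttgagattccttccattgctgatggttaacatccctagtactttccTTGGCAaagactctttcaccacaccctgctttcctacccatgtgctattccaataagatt
Foxp1 intron, chr6:98990916-98991116: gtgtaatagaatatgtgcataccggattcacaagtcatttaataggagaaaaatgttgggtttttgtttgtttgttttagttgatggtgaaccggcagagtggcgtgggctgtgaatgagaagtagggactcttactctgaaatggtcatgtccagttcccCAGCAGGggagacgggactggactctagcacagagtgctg
Angpt1 intron, chr15:42581245-42581445: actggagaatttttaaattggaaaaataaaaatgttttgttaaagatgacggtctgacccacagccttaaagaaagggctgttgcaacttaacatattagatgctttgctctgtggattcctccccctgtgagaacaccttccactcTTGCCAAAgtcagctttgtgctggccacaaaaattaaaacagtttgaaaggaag
Scara5 intergenic, chr14:65656154-65656354: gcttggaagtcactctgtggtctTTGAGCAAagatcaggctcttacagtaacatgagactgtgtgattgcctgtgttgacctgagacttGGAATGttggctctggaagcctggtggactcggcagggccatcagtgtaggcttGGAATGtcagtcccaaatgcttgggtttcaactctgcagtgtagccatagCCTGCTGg
Kng2 promoter, chr16:23029128-23029228: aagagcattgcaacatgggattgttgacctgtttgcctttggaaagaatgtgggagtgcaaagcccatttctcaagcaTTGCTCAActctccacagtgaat
Gm20756 promoter, chr6:25931207-25931407: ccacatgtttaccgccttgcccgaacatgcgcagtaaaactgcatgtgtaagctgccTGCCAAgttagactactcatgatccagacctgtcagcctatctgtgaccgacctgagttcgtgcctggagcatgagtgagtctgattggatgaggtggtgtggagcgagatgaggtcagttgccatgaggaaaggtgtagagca
Prelp promoter, chr1:133921408-133921608: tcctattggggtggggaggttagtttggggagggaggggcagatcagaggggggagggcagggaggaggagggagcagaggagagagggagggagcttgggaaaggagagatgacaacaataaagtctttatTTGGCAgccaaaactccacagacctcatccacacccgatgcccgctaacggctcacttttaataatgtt
Pax1 intron, chr2:147372584-147372784: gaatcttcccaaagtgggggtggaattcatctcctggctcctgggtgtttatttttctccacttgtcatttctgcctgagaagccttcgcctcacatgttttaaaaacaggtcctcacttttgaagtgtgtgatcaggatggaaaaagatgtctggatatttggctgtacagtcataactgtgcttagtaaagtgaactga
Zic1 promoter, chr9:91365856-91366056: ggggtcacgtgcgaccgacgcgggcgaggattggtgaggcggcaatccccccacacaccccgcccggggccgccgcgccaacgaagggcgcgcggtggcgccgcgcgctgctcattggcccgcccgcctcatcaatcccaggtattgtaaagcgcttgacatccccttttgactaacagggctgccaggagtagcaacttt
Dio3 promoter, chr12:110278942-110279142: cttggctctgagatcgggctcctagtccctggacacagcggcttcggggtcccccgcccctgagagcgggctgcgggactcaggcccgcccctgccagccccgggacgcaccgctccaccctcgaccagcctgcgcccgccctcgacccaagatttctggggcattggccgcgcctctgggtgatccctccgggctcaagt

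The Kng2 window is shorter than the others. Of the 10 windows, 7 held at least 1 of the 6 motifs, with 3 different motifs in the Scara5 window. The windows from Pax1, Zic1 and Dio3 held none. GC content ran from 39.3% in the Angpt1 window to 71.6% in the Dio3 promoter.

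The vBM-only regions were low peaks. MACS2, the peak caller of the study, gives for each summit the pileup (how many reads cover it) and its fold enrichment over a constant background. The vBM-only regions had a median fold enrichment of 6.25 (range 5.52 to 19.9) and a median pileup of 16 reads, against a median fold of 9.2 in the other vBM-MSC regions. They were also narrower, with a median width of 373 bp against 538 bp, and 85 of them (3.66%) held several summits against 18.5% of the other vBM-MSC regions. The fBM-only, A-only and P-only regions were as low, with the same median fold and pileup, median widths of 348 to 368 bp and several summits in 2.03 to 4.21%. The rule set the lower end of these values. At the lowest pileup that passed, 14 reads, there were 581 regions with a fold of 5.52 and a −log10 q of 7.13. Just outside it were 812 regions at 13 reads that overlapped no other list, with a fold of 5.15 and a −log10 q of 6.23. At the upper end, 532 regions reached 20 reads, 64 reached 30 and 8 reached 40.

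Absence from another list had a floor too. Of the vBM-MSC regions left out, 3785 touched no line that passed the threshold in its own list, and 65 of these touched only lines at 7 reads, the lowest pileup in the lists. Accessibility below 7 reads was not detectable from these lists, so a vBM-only region is one without a listed peak elsewhere and not one shown to be closed there.

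A region of another tissue's list came within 5 kb of 1235 of them (53.1%, 95% exact Clopper-Pearson interval 51.1 to 55.2%, which covers counting error only), and within 500 bp of 206 (8.86%). The median gap was 4508 bp. The same share was 42.1% for fBM-only, 60.9% for A-only and 57% for P-only regions, so the vBM-only regions lay within the range of the other sets. They were mostly single sites, since 149 (6.41%) had another vBM-only region within 10 kb and 407 (17.5%) within 50 kb. Their share of the vBM-MSC regions on a chromosome ran from 2.99% on chromosome 17 to 5.46% on chromosome 14.

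By position, the vBM-only regions were almost all distal. Only 42 summits (1.81%, interval 1.3 to 2.43%) lay in a promoter, taken as within 1 kb of a curated RefSeq start site, against 25.3% of the other vBM-MSC regions. Introns held 1061 summits (45.6%), exons 67 (2.88%) and intergenic sequence 1155 (49.7%). The median distance to the nearest start site was 40182 bp, against 15139 bp for the other vBM-MSC regions. The sets open in 1 of the other tissues had promoter shares of 1.81% (fBM-only), 3.03% (A-only) and 2.48% (P-only). A-only regions lay nearer to start sites than vBM-only regions, with a median of 28903 bp and 42.7% in intergenic sequence. The vBM-only windows had a mean GC content of 44.6% ± 6.83 (SD over 2325 regions) and 2.32 CpG in the 100 bp on each side of the summit, against 52.2% and 6.65 in the other vBM-MSC regions and 2.13 to 2.71 CpG in the other single-tissue sets.

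**Figure D1:**
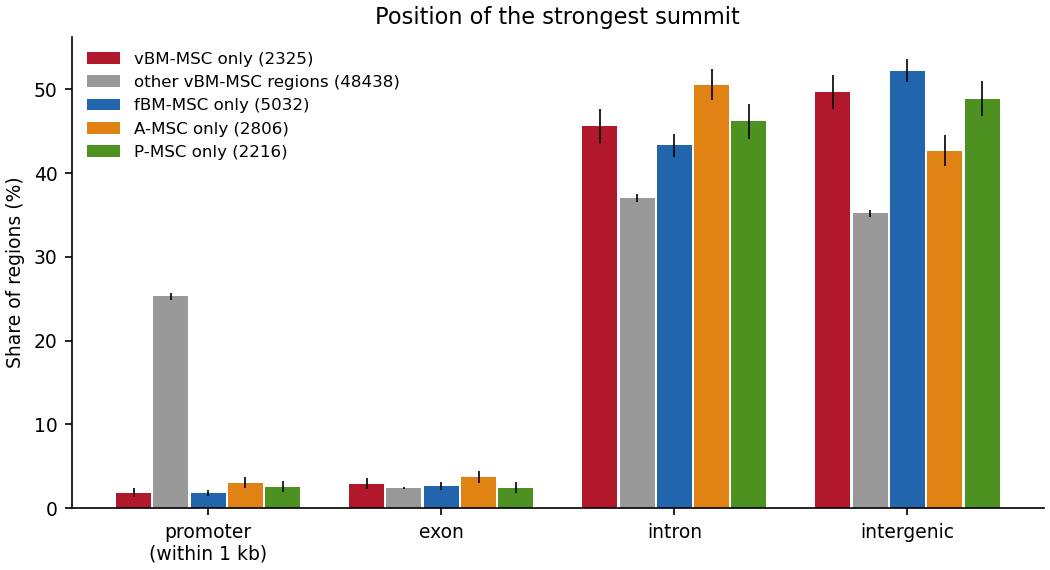
Share of regions (%) whose summit lies in a promoter, exon, intron or intergenic sequence, for the vBM-only regions, the other vBM-MSC regions and the regions listed in 1 of the other tissues alone. Promoters hold 1.81% of vBM-only summits and 25.3% of the other vBM-MSC summits, and the other single-tissue sets lie between 1.81% and 3.03%.

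Motif content was measured because the rule did not use it. The 100 bp on each side of each summit were searched on both strands for 29 short motifs of transcription factor families, and a region counts once for each motif. A match is a description of letters and not of binding. Of the 29 motifs, 18 had a higher share in vBM-only regions than in the other vBM-MSC regions. Shares 1 kb away from the summit and shares of the same letters written backwards are given as the background for some motifs.

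C/EBP factors are bZIP proteins that drive adipocyte, myeloid and inflammatory gene programs. Their TTGCNNAA motif was in 15.3% of vBM-only summits (interval 13.9 to 16.8%), against 10% of the other vBM-MSC regions. The same motif was in 9.3% of fBM-only, 12.6% of A-only and 8.89% of P-only regions. Away from the vBM-only summits its share was 8.99%, and the reversed letters matched 2.06%. The vBM-only interval lay above the value of each other set, and the matches gathered near the summit, with 2.62 matches per 100 regions in the fullest 25 bp bin.

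MEF2 factors are MADS-box regulators known from muscle and bone. TATTTNTA, their motif, had the highest ratio of all 29, at 9.55% (interval 8.38 to 10.8%) of vBM-only and 4.83% of other vBM-MSC regions, but the flank of the vBM-only regions held it in 8.0% and the reversed letters matched 8.43%. The interval at the summit thus lay just above the flank share and held the share of the reversed letters. By peak height the MEF2 share of vBM-only regions was 8.83% at 14 or 15 reads, 8.04% at 16 to 19 and 13.2% at 20 or more. The posterior HOX (TTTATGG), homeodomain (TAATTA) and FOX (TGTTTAC) motifs made up the rest of the 5 highest ratios, with shares of 3.7%, 4.04% and 4.17% against 2.29%, 2.57% and 2.81%. Other single-tissue sets reached or passed these shares, with 3.76% (fBM-only) for posterior HOX, 6.34% (fBM-only) for homeodomain and 5.42% (P-only) for FOX. Homeodomain matches were more frequent in the flank (6.67%) than at the summit, and the reversed letters of posterior HOX (4.56%) and FOX (4.73%) matched more often than the motifs.

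STAT, NFI, TEAD, ZIC, RUNX and AP-1 motifs were singled out after their values were seen. STAT factors carry cytokine signals, and TTCNNNGAA was in 10.2% of vBM-only regions (interval 8.99 to 11.5%), against 7.01% of the other vBM-MSC regions and 6.32 to 6.81% of the other single-tissue sets. NFI factors act in stem cell and connective tissue development, and TTGGCA was in 20% (18.4 to 21.7%) against 14.1%, with 10.4% in the flank. P-only regions held it in 17.6% (16 to 19.2%), an interval that overlaps, and fBM-only regions in 15.5%. TEAD factors are the DNA-binding partners of YAP, and GGAATG was in 25.8% (24.1 to 27.7%) against 20.2%, below the 28.3% of A-only regions. The other vBM-MSC regions outside promoters held it in 24.3%, within the vBM-only interval. In the vBM-only flank the shares were 10.5% for TEAD and 6.54% for STAT. ZIC zinc fingers pattern the neural tube and the somites. CAGCAGG was in 10.2% (9.03 to 11.5%) of vBM-only regions and 8.86% of the other vBM-MSC regions, and in 5.81 to 6.46% of the other single-tissue sets, with 4.82% in the vBM-only flank. Outside promoters, the shares in vBM-only and other vBM-MSC regions were 15.4% and 11.8% for C/EBP, 10.2% and 8.1% for STAT, 19.9% and 16.5% for NFI, 10.4% and 9.33% for ZIC and 9.68% and 6.02% for MEF2, so the ZIC and TEAD differences were small once promoters were set aside.

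AP-1, the FOS and JUN dimer that opens enhancers in many cultured cells, showed the opposite. Its TGANTCA motif was in 11.1% of vBM-only regions (interval 9.89 to 12.5%), against 28.7% of the other vBM-MSC regions, 42.2% of fBM-only, 25.8% of A-only and 49.1% of P-only regions. The vBM-only share was above the 5.98% of its own flank and the 6.19% of the reversed letters. Within the set it was alike at all peak heights, at 11.4% at 14 or 15 reads, 10.8% at 16 to 19 and 11.3% at 20 or more. The other vBM-MSC regions were as even, at 29%, 30.7% and 28%, and P-only regions had 46.0%, 46.9% and 57.8% in the same bins. RUNX (TGTGGT), the family of the osteoblast regulator Runx2, was in 19.6% of vBM-only regions, beside 18.8% of the other vBM-MSC regions and 22.5% of those outside promoters, while fBM-only regions held it in 38.6%. The vBM-only flank held RUNX in 16.6%. Motifs that are frequent at promoters were the rarest by ratio, with SP-KLF (GGGCGG) in 3.53% against 19.5%, ETS (CCGGAAG) in 0.473% against 4.14% and CREB (TGACGTCA) in 0.172% against 0.966%. Outside promoters, the other vBM-MSC regions had 7.2% for SP-KLF and 1.32% for ETS.

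**Figure D2:**
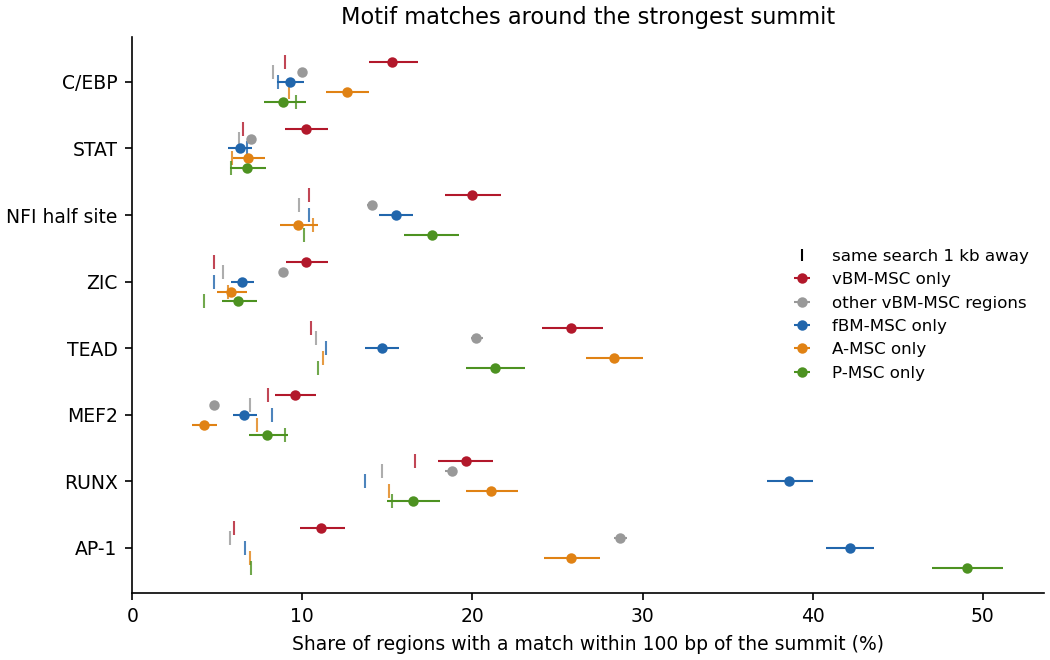
Share of regions (%) with a match within 100 bp of the summit for 8 motifs in the 5 region sets, with 95% exact Clopper-Pearson intervals, and ticks for the same search 1 kb away. AP-1 stands at 11.1% in vBM-only regions and at 25.8 to 49.1% in the other sets, while C/EBP and STAT are highest in vBM-only regions.

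Among vBM-MSC regions outside promoters, the AP-1 share ran with how open the site was elsewhere. It was 11.3% of 2283 regions with no listed peak in another tissue, 14.9% where the strongest peak elsewhere had 7 to 9 reads and 16.5% at 10 to 13 reads. It was 23.2% at 14 to 19 reads and 42.2% of 26951 regions at 20 or more. C/EBP ran the other way over a smaller span, from 15.4% to 11.4%, and STAT from 10.2% to 8.02%. TEAD lay between 22.5% and 26.5% with no order, and ZIC between 8.93% and 10.7%. These classes also differ in the height of the vBM-MSC peak itself, whose part in the shares was not tested.

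**Figure D3:**
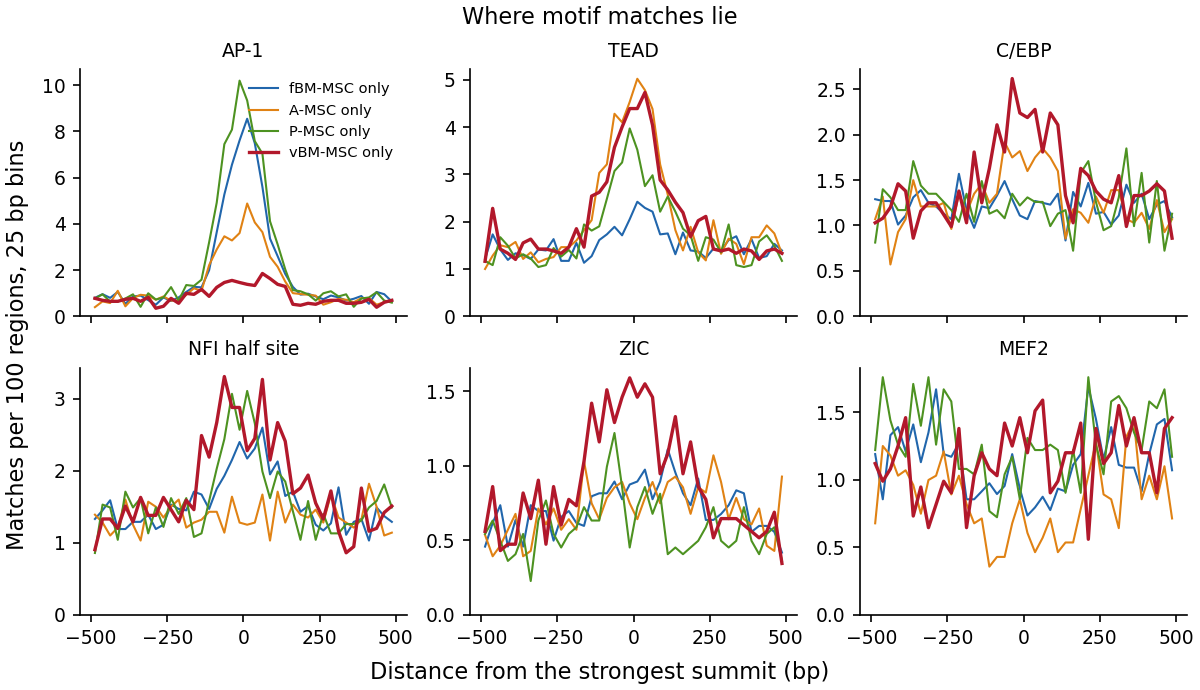
Motif matches per 100 regions in each 25 bp bin by distance from the summit (bp) for 6 motifs and the 4 single-tissue sets. AP-1 reaches 10.2 matches at the summit of P-only and 8.55 at that of fBM-only regions but at most 1.85 in vBM-only regions, whereas C/EBP reaches 2.62 in vBM-only regions.

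The RNA of nearby genes was then compared between vBM-MSCs and the other tissues, since the regions were chosen without it. Each region was tied to its nearest start site if that lay within 100 kb, which gave 1752 regions (75.4%) and 1556 genes, of which 1383 had 1 region, 157 had 2 and 16 had 3 or more. Of these genes, 173 were not in the RNA table, 507 were too low to test and 876 were tested. Differences are log2 fold changes of vBM-MSCs (n = 2) against the mean of the 3 other tissues (n = 3 each) from edgeR's quasi-likelihood test. That mean is taken over the log2 values of the tissues. Its p-values were adjusted by the Benjamini-Hochberg method over all 12509 genes tested, at a threshold of 0.05, and measure the spread between cultures of 1 tissue. In bulk RNA, fewer cells of a type and less RNA per cell cannot be told apart.

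Genes with a vBM-only region were more often higher in vBM-MSCs. Of the 876 genes, 195 were higher (22.3%, interval 19.5 to 25.2%), beside a background of 12.6% over all genes tested. Lower were 46 (5.25%, interval 3.87 to 6.94%), beside a background of 9.49%. The median log2 fold change was 0.171, against 0.0284 over all genes tested. Of the 876 genes, 15 passed the filter on low counts through the vBM-MSC libraries alone, and such genes had to differ. Among those named below they are Bst1, Dio3, Ecm2, Gdf10, Gm20756, Gucy2c, Pax9, Scara5 and Zic4, whose calls are therefore no support. With the filter applied to the 9 libraries of the other tissues, an alternative added after the data were seen, 179 of 851 genes (21.0%) were higher, beside 12.4% of all 12357 genes. Refits that leave out a vBM-MSC library test the remaining one on the spread of the other tissues, as if it varied like them. Without vBM-MSC replicate 1 the share higher was 13.3% beside 6.92% of all genes and the share lower was 3.38% beside 5.17%. Without vBM-MSC replicate 2 the shares higher were 16.3% and 9.86%.

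Genes near regions of the other sets were closer to the background. The share higher in vBM-MSCs was 13.1% of 10337 genes near the other vBM-MSC regions, 15.7% of 1463 near fBM-only, 15.7% of 1124 near A-only and 12.5% of 851 near P-only regions. A gene can be in several of these sets. By distance, 27.8% of 205 genes were higher where the closest vBM-only region lay within 10 kb, 20.7% of 482 at 10 to 50 kb and 20.1% of 189 at 50 to 100 kb. Without the genes that passed the filter through the vBM-MSC libraries alone these were 24.9% (interval 19 to 31.5%), 20.3% and 19.8%, with intervals that overlapped. By peak height the shares were 20.2% (interval 16.2 to 24.6%), 22.6% (18 to 27.6%) and 25.6% (19.7 to 32.3%) at 14 or 15, 16 to 19 and 20 or more reads, with intervals that overlapped. By number of regions, 21.1% of 773 genes with 1 region, 32.6% of 92 with 2 (interval 23.2 to 43.2%) and 18.2% of 11 with 3 or more (2.28 to 51.8%) were higher.

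**Figure D4:**
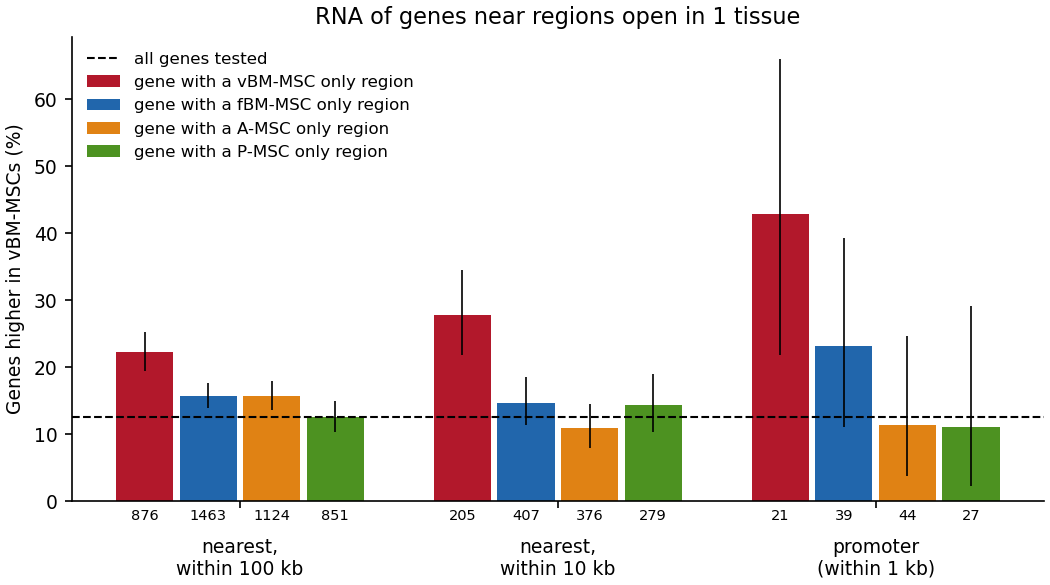
Share of tested genes (%) higher in vBM-MSCs than the mean of the other tissues, by the single-tissue set with a region within 100 kb, within 10 kb or in the promoter, with 95% exact Clopper-Pearson intervals, the number of genes under each bar and a dashed line for all genes tested. Genes near vBM-only regions are higher in 22.3%, 27.8% and 42.9%, against 12.6% of all genes, and in 21.3%, 24.9% and 36.8%, against 12.5%, without those that passed the filter through the vBM-MSC libraries alone. The promoter intervals overlap.

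The comparisons with single tissues share the vBM-MSC libraries. Against fBM-MSCs, 98 of the 876 genes (11.2%) were higher, beside a background of 7.56%, and genes near A-only and P-only regions gave 12.2% and 10.3%. Against A-MSCs, 196 (22.4%) were higher, beside 13.2%, with 17.9% near fBM-only and 17.6% near P-only regions. Against P-MSCs, 261 (29.8%) were higher, beside 21.0%, with 26.1% near fBM-only and 24.6% near A-only regions. In all 3 comparisons together, 45 genes (5.14%) were higher, beside a background of 1.64%. Without the genes that passed the filter through the vBM-MSC libraries alone these were 40 genes (4.65%) beside 1.56%, and over all tested genes those near fBM-only, A-only and P-only regions gave 1.64%, 2.31% and 2.23%. Among the 45, with examples picked after their values were seen, were Cyp26b1 (retinoic acid breakdown, log2 fold change 5.22 ± 0.53 (SE), adjusted p = 6.68e-05), the transcriptional coactivator Eya2 (4.27 ± 0.45, adjusted p = 8.70e-05), the collagen gene Col8a1 (2.91 ± 0.11, adjusted p = 2.58e-07) and Ptx3, a secreted pentraxin (3.52 ± 0.25, adjusted p = 5.34e-06).

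Axial and somite factors pattern the trunk skeleton. Of 22 such genes, 12 were tested, 6 were higher and 0 lower, beside 12.6% higher and 9.49% lower among all genes tested, and their median log2 fold change was 1.68, beside 0.0284. A vBM-only region was nearest to 6 of the 22, namely Foxc1, Foxd1, Pax1, Pax9, Zic1 and Zic4. Foxc1, Foxd1 and Pax1 were tested and higher in vBM-MSCs. Pax9 and Zic4 were called higher too but passed the filter through the vBM-MSC libraries alone, so the 6 and the median include genes that had to differ. Zic1 was too low to test. The list was drawn up with earlier results of these data known.

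Pax1 is required for the ventral part of the somite that forms the vertebral bodies and discs. Its region lay in an intron, 7690 bp from the start site at chr2:147372545-147372828, with a fold enrichment of 7.36. Pax1 had 17.9 and 13.8 TPM (a length-normalised abundance) in the vBM-MSC libraries. It had 0.28, 2.48 and 0.54 TPM in fBM-MSCs, 0, 0.12 and 0 in A-MSCs and 0.6, 0.49 and 0.63 in P-MSCs. Both vBM-MSC libraries lay above all 9 others. The log2 fold change was 5.69 ± 0.60 (SE), with an edgeR adjusted p of 8.53e-05, and the adjusted p values against fBM-MSCs, A-MSCs and P-MSCs were 0.0116, 2.96e-04 and 9.59e-04.

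Pax9, its close relative, acts with Pax1 in the same cells. The region lay 5420 bp upstream with the lowest passing fold of 5.52, and the gene overlaps Slc25a21. Pax9 had 1.51 and 2.78 TPM in vBM-MSCs, 0.17 to 0.44 in fBM-MSCs, 0 to 0.07 in A-MSCs and 0.05 to 0.25 in P-MSCs, with no overlap. It was higher against the mean by 4.25 ± 0.71 on the log2 scale (SE, edgeR adjusted p = 0.00163). Against fBM-MSCs alone the difference was 2.66 and missed the threshold, with an adjusted p of 0.0942. Pax9 passed the filter through the vBM-MSC libraries alone, so its call is no support.

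Zic1 and Zic4 are neighbouring genes, read in opposite directions from a shared stretch of chromosome 9, that encode zinc finger factors of the dorsal neural tube and somites. Zic1 (chr9:91358058-91365768, − strand) had 3 vBM-only regions, 1 in its promoter 188 bp upstream (chr9:91365682-91366134, fold 8.09) and 2 on the far side of the gene, 9992 and 14686 bp from the start site, with folds of 9.93 and 6.62. The promoter region ended 330 bp from a region of another list. Zic4 (chr9:91368972-91389351, + strand) had 1 region in an exon, 1245 bp from a start site, with the lowest passing fold of 5.52. Zic1 had 0.43 and 1.12 TPM in vBM-MSCs, and Zic4 had 0.52 and 1.03. Both genes were at 0 in all 9 other libraries. Taking 3 counts over the 9 other libraries as the floor, Zic1 was at least 174-fold and Zic4 at least 214-fold higher in vBM-MSCs. Zic4 passed the filter through the vBM-MSC libraries alone, so its call is no support, and Zic1 was below the filter.

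Foxd1, a forkhead factor of kidney stroma and paraxial mesoderm, had a region 20598 bp downstream of its start site (fold 5.89). It had 6.3 and 4.48 TPM in vBM-MSCs, 0.55 to 1.01 in fBM-MSCs, 0 to 0.02 in A-MSCs and 0 to 0.1 in P-MSCs. The groups did not overlap, and the log2 fold change was 6.37 ± 0.64 (SE, edgeR adjusted p = 6.20e-05). Foxc1, a forkhead factor of the somites and of marrow stroma, had 2 regions and a log2 fold change of 2.51 ± 0.42 (adjusted p = 0.00168).

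**Figure D5:**
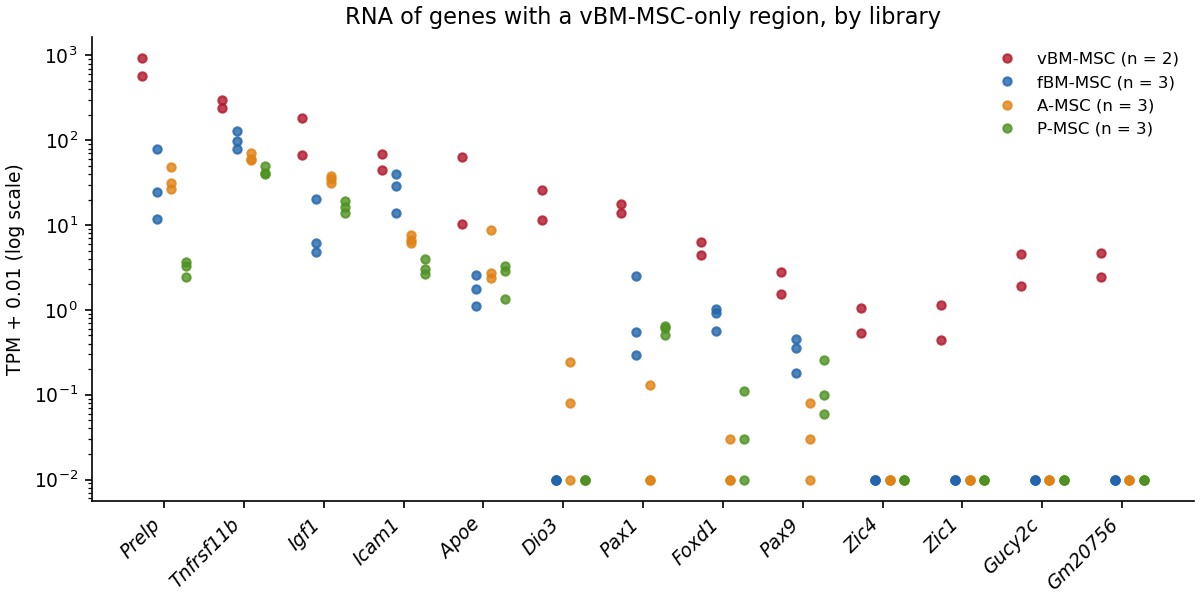
Expression (TPM + 0.01, log axis) of 13 named genes with a vBM-only region in each RNA-seq library by tissue; each point is 1 library, and genes at 0 are drawn on the lowest line. For all 13 genes both vBM-MSC points lie above all 9 others. Of these genes, Dio3, Gm20756, Gucy2c, Pax9 and Zic4 passed the filter on low counts through the vBM-MSC libraries alone, and Zic1 was below it.

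The regions in promoters were few. The 42 regions belonged to 41 genes, of which 39 were in the RNA table and 21 were tested. Of these, 9 were higher in vBM-MSCs (42.9%, interval 21.8 to 66.0%), beside 12.6% of all genes and 23.1% (11.1 to 39.3%) of 39 genes with an fBM-only region in the promoter, whose interval overlaps. Dio3 and Gm20756, 2 of the 9, passed the filter through the vBM-MSC libraries alone, and without them 7 of 19 were higher (36.8%, interval 16.3 to 61.6%). Of the 21 genes 1, Gm12070, was lower (−0.77 ± 0.21, edgeR adjusted p = 0.0238).

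Dio3 encodes the deiodinase that inactivates thyroid hormone. Its region lay 188 bp upstream of the start site (chr12:110278771-110279358, fold 6.25), and the nearest region of another list was 14857 bp away. It had 25.7 and 11.6 TPM in vBM-MSCs, 0 in fBM-MSCs, 0.23, 0 and 0.07 in A-MSCs and 0 in P-MSCs. Summed counts were 1305 in the 2 vBM-MSC libraries and 11 in the 9 others. Dio3 was at least 585-fold higher than in fBM-MSCs and at least 700-fold higher than in P-MSCs, with 3 counts over each of those groups as the floor.

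Prelp, a leucine-rich proteoglycan that anchors matrix to basement membranes and is abundant in cartilage, had a region 107 bp upstream (chr1:133921328-133921883, fold 7.36) and an intronic one 3200 bp downstream (fold 6.99). It had 938 and 576 TPM in vBM-MSCs, 79.3, 11.8 and 24.7 in fBM-MSCs, 31.2, 26.3 and 48.5 in A-MSCs and 3.24, 2.41 and 3.63 in P-MSCs. Prelp was the most abundant of the promoter genes named here and did not overlap between vBM-MSCs and the others. Its log2 fold change was 5.54 ± 0.44 (SE, edgeR adjusted p = 1.22e-05).

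The uncharacterised gene Gm20756 had a region 119 bp upstream (fold 9.2) and a distal one 29675 bp away (fold 5.52). It had 2.43 and 4.74 TPM in vBM-MSCs and 0 in all 9 other libraries, at least 332-fold higher, and passed the filter through the vBM-MSC libraries alone. Kng2, a kininogen gene, had a region 77 bp upstream (fold 9.2), 4.3 and 8.35 TPM in vBM-MSCs, 0.67 to 1.26 in fBM-MSCs, 0 to 1.3 in A-MSCs and 0 in P-MSCs (at least 212-fold). Its edgeR adjusted p was 0.00391 against the mean but 0.173 against fBM-MSCs and 0.0736 against A-MSCs.

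Apoe, the lipid transport protein, had a region 43 bp inside the gene (fold 5.52), 184 bp from a region of another list. It had 10.2 and 62.8 TPM in vBM-MSCs, 1.11 to 2.6 in fBM-MSCs, 2.37 to 8.74 in A-MSCs and 1.34 to 3.26 in P-MSCs. The log2 fold change was 3.62 ± 0.51 (SE, edgeR adjusted p = 6.16e-04) and was 2.01 without vBM-MSC replicate 2. Its adjusted p over 15 refits ran from 5.17e-08 to 0.0515, the highest without that library. Icam1, the leukocyte adhesion receptor, had a region 393 bp upstream (fold 6.25) that ended 36 bp from a region of another list. Icam1 had 69.5 and 44.1 TPM in vBM-MSCs, 28.6, 39.7 and 13.8 in fBM-MSCs, 6.13 to 7.61 in A-MSCs and 2.62 to 3.95 in P-MSCs. It was higher by 2.75 ± 0.27 on the log2 scale (SE, edgeR adjusted p = 4.97e-05), though not against fBM-MSCs alone (adjusted p = 0.0772).

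The rest of the 9 were Sp140, Sult4a1 and Slc35e3. Sp140, a chromatin reader of immune cells that overlaps its relative Sp110, had 10.6 and 3.95 TPM in vBM-MSCs, 1.2 to 1.67 in fBM-MSCs, 6.62 to 7.79 in A-MSCs and 0.35 to 0.72 in P-MSCs, so vBM-MSCs and A-MSCs overlapped. Its log2 fold change of 2.07 ± 0.33 (SE, edgeR adjusted p = 0.0012) was 1.05 without vBM-MSC replicate 1, and over 15 refits its adjusted p ran from 6.76e-06 to 0.0774. Sult4a1 had mean TPM of 9.97 in vBM-MSCs, 13.6 in P-MSCs, 8.88 in fBM-MSCs and 1.16 in A-MSCs, and passed against A-MSCs but not against fBM-MSCs (0.16, adjusted p = 0.775) or P-MSCs (−0.34, adjusted p = 0.409). Against the mean it was at 0.95 ± 0.24 (adjusted p = 0.0173) and at 0.29 without vBM-MSC replicate 1, with adjusted p from 0.00205 to 0.513. Slc35e3 was at 0.71 ± 0.13 (adjusted p = 0.00238).

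Among genes with distal regions, Gucy2c and Bst1 had some of the largest differences. Gucy2c, the guanylyl cyclase known as the gut receptor for guanylin, had an intronic region with 2 summits 12161 bp from its start site (chr6:136769386-136770300, fold 6.25) and no region of another list within 26.2 kb. It had 4.51 and 1.88 TPM in vBM-MSCs and 0 in all 9 other libraries, at least 787-fold higher, and passed the filter through the vBM-MSC libraries alone. Bst1 (CD157), an ectoenzyme first found on bone marrow stromal cells, had an intronic region at 2018 bp (fold 6.99). Its TPM was 20.7 and 3.85 in vBM-MSCs, 0 to 0.13 in fBM-MSCs, 0 to 0.4 in A-MSCs and 0 to 0.45 in P-MSCs. Its difference was 6.81 ± 0.97 on the log2 scale (SE, edgeR adjusted p = 6.15e-04). Bst1 too passed the filter through the vBM-MSC libraries alone, so its call is no support. The vBM-MSC libraries differed from each other but neither overlapped the rest.

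Gdf10, a BMP-like ligand, had a region 4141 bp upstream (fold 5.52). It had 3.18 and 3.14 TPM in vBM-MSCs, 0.2 to 0.46 in fBM-MSCs, 0 to 0.14 in A-MSCs and 0 to 0.04 in P-MSCs, and was higher by 5.73 ± 0.87 on the log2 scale (SE, edgeR adjusted p = 9.42e-04). Scara5, a ferritin receptor of stromal cells, had a region 10149 bp upstream (fold 9.93). Its TPM was 5.4 and 2.0 in vBM-MSCs and at most 0.35 in the other libraries, and its log2 fold change was 5.86 ± 1.23 (SE, edgeR adjusted p = 0.006). Its adjusted p over 13 refits ran from 1.00e-04 to 0.132, the highest in DESeq2's Wald test. Ecm2, a matrix protein gene that overlaps Cenpp, had 0.6 and 1.27 TPM in vBM-MSCs and at most 0.31 elsewhere, with all A-MSC libraries at 0 (at least 80.6-fold). The edgeR adjusted p for Ecm2 was 0.00858 and ran from 0.00139 to 0.169 over 13 refits. Against fBM-MSCs alone Gdf10 (adjusted p = 0.0783), Scara5 (0.0932) and Ecm2 (0.246) missed the threshold. These genes passed the filter through the vBM-MSC libraries alone, so their calls are no support.

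Of 25 osteoblast genes, 22 were tested, 11 were higher and 0 lower, beside 12.6% and 9.49% of all genes tested, and their median was 1.84 on the log2 scale. The called members with a vBM-only region were Dmp1, Spp1 and Tnfrsf11b, all higher than the mean of the log2 values of the other tissues. Tnfrsf11b encodes osteoprotegerin, the decoy receptor that restrains osteoclast formation. It had 3 regions, 12911 and 45566 bp upstream and 16115 bp downstream of its start site. It had 298 and 243 TPM in vBM-MSCs, 127, 97.5 and 78.4 in fBM-MSCs, 58.9 to 70.4 in A-MSCs and 40.5 to 49.1 in P-MSCs. No library overlapped, and the log2 fold change was 2.04 ± 0.16 (SE, edgeR adjusted p = 9.63e-06), with 1.39 against fBM-MSCs alone (adjusted p = 0.00171).

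Dmp1 and Spp1, matrix proteins of mineralising bone, were higher than the mean of the log2 values but lower than fBM-MSCs. On the TPM scale both lay below the mean of the other tissues, because their TPM was so high in fBM-MSCs. Dmp1 (region 10474 bp upstream, fold 5.52) had 0.8 and 17.2 TPM in vBM-MSCs, 40.4, 96.7 and 159 in fBM-MSCs and at most 0.2 elsewhere. The log2 fold change of Dmp1 was 4.54 ± 0.99 against the mean (SE, edgeR adjusted p = 0.00752) and −3.56 against fBM-MSCs (adjusted p = 0.0315). Without vBM-MSC replicate 2 it was 1.21 against the mean, and over 15 refits its adjusted p ran from 6.98e-04 to 0.756. Spp1 (region 36853 bp upstream, fold 6.99) had 1560 and 9040 TPM in vBM-MSCs, 26400, 38400 and 84000 in fBM-MSCs, 352 to 384 in A-MSCs and 160 to 284 in P-MSCs. Its log2 fold changes were 1.64 ± 0.44 (adjusted p = 0.0202) against the mean and −3.34 (adjusted p = 0.00835) against fBM-MSCs. The first of these was 0.06 without vBM-MSC replicate 2. Its call was lost with the replicate block (edgeR adjusted p = 0.051) and in limma on log2(TPM + 1) (adjusted p = 0.0903).

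In the chondrocyte list (24 genes, 13 tested, 7 higher and 1 lower, beside the same 12.6% and 9.49%, median 1.6) Col11a1 alone had vBM-only regions. Col11a1 encodes a chain of the fibrillar collagen XI of cartilage. Its intronic region 51723 bp from the start site (chr3:114081931-114082498, fold 13.6) is shown above, and a weaker one lay 99761 bp upstream (fold 6.25). Col11a1 had 6.96 and 10.5 TPM in vBM-MSCs, 1.74 to 4.46 in fBM-MSCs, 0.9 to 1.51 in A-MSCs and 4.0 to 5.08 in P-MSCs. The groups did not overlap, and the log2 fold change was 1.78 ± 0.28 (SE, edgeR adjusted p = 0.00102).

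Of 15 blood stem cell niche genes, 13 were tested, 5 were higher and 0 lower, beside 12.6% and 9.49% of all genes, with a median log2 fold change of 0.239. Regions lay near Angpt1, Bmp4, Igf1, Kitl and Thpo, of which 4 were tested and 3 higher. Igf1, the insulin-like growth factor, had an intronic region at 43304 bp (fold 5.89) that ended 290 bp from a region of another list. It had 185 and 67 TPM in vBM-MSCs, 4.78 to 20.4 in fBM-MSCs, 31.6 to 38.1 in A-MSCs and 14 to 19.1 in P-MSCs. The groups did not overlap, and Igf1 was higher by 2.94 ± 0.41 on the log2 scale (SE, edgeR adjusted p = 5.72e-04), and by 1.92 without vBM-MSC replicate 1 (adjusted p range over 15 refits 2.04e-05 to 0.0284).

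The calls for Angpt1 and Bmp4 were lost in 9 and 2 of 15 refits, among them the replicate block and the refit without vBM-MSC replicate 2. Angpt1, the ligand of the TIE2 receptor, had a high intronic region at 95632 bp (fold 10.7) but 0.04 and 5.85 TPM in vBM-MSCs, against 1.66 to 5.8 in fBM-MSCs, 0.01 to 0.34 in A-MSCs and 0 to 0.09 in P-MSCs. Its log2 fold change was 3.46 ± 1.09 (SE, edgeR adjusted p = 0.042) and turned to −2.67 without vBM-MSC replicate 2, and over 15 refits its adjusted p ran from 0.0119 to 0.402. Bmp4, the bone morphogenetic protein, had 2.44 and 4.91 TPM in vBM-MSCs and 0.47 to 3.06 in the others. Its log2 fold change was 1.36 ± 0.39 (adjusted p = 0.0267) and was 0.9 without vBM-MSC replicate 2, with adjusted p from 0.0146 to 0.272.

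Of 39 Hox genes, which encode position along the body axis, 26 were tested, 10 were higher and 0 lower, beside 12.6% and 9.49% of all genes, with a median log2 fold change of 1.25. The vBM-only regions lay near Hoxb2, Hoxb8 and Hoxc13, of which 1 was higher. Hoxb2, whose region lay 1849 bp away within Hoxb3os, had 9.86 and 16.6 TPM in vBM-MSCs and 0.99 to 1.61 in fBM-MSCs, but 9.63 to 18.7 in A-MSCs and 14 to 15.2 in P-MSCs. Its log2 fold change was 0.97 ± 0.25 (SE, edgeR adjusted p = 0.0167) and 3.29 against fBM-MSCs (adjusted p = 1.78e-04), and over 15 refits the first p ran from 0.00616 to 0.182, the highest without vBM-MSC replicate 2. Of 20 limb factors, 17 were tested, 3 were higher and 3 lower (median −0.192), and the 2 with a region, Alx4 and Msx2, did not pass. None of 23 cholesterol synthesis genes (9 of 23 tested higher, median 0.192) and none of 15 acyl-CoA thioesterases (11 tested, 1 higher and 2 lower, median −0.251) had a vBM-only region, beside 5.94% of all annotated genes, a share at which lists of this size hold few or none. The study named both pathways from these samples, so neither list is independent of them. The adipogenic list (15 genes, 10 tested, 1 higher, median 0.607) had a region near Zfp423, which was not tested.

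Of the 11 tested genes with 3 or more regions, 2 were higher (18.2%), beside 12.6% of all genes. Angpt2, a TIE2 ligand inside the Mcph1 gene, had 5 regions, all in introns of Mcph1, with folds of 5.89 to 9.93, 1 of them 37 bp from a region of another list. It had 0.38 and 4.21 TPM in vBM-MSCs and 0.18 to 2.87 in the others, with a log2 fold change of 0.91 ± 0.79 (SE, edgeR adjusted p = 0.454) that was −1.5 without vBM-MSC replicate 2 (adjusted p range over 15 refits 0.191 to 0.626). Clmn had 4 regions, the strongest with a fold of 14.3 and 3 summits, and at most 0.07 TPM in any library. Tjp1, the tight junction scaffold, had 4 regions and a log2 fold change of 0.3 ± 0.19 (adjusted p = 0.302, −0.07 without vBM-MSC replicate 2, adjusted p range 0.0942 to 0.87). The chromatin remodeller gene Smarca2 had 4 regions, all in introns, 3 of them 31057 to 32350 bp before an internal start site, and a log2 fold change of 0.48 ± 0.28 (adjusted p = 0.263, 0.12 without vBM-MSC replicate 2 and 0.76 without replicate 1). 4930515L03Rik, with 4 regions, was at 0 in every library, and Gm51695, with 4 inside Itga9, was not in the RNA table.

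Asb7, Foxp1 and Jag1 had 3 regions each. Foxp1, a forkhead repressor, had an intronic region at 37282 bp with a fold of 12.1. It had 12.7 and 17.1 TPM in vBM-MSCs, 7.58 to 9.63 in fBM-MSCs and 6.66 to 7.43 in A-MSCs, but 21.0 to 23.4 in P-MSCs. The log2 fold change of Foxp1 was 0.38 ± 0.10 against the mean (SE, edgeR adjusted p = 0.0215) and −0.5 against P-MSCs (adjusted p = 0.00863). Against the mean it was 0.26 without vBM-MSC replicate 2. The call of Foxp1 was lost with the replicate block (edgeR adjusted p = 0.0511) and in limma on log2(TPM + 1) (adjusted p = 0.0786). Jag1, a Notch ligand, had 11 and 14.4 TPM in vBM-MSCs, 2.32 to 6.61 in fBM-MSCs, 11.1 to 13.5 in A-MSCs and 8.11 to 9.49 in P-MSCs. It differed from fBM-MSCs by 1.53 on the log2 scale (adjusted p = 0.00839) but not from the mean (0.67 ± 0.25, adjusted p = 0.0775, range 0.00169 to 0.293 over 15 refits, with a call in those without fBM-MSC replicate 1 or 3). Asb7 was at 0.5 ± 0.18 (adjusted p = 0.0756).

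Of the 46 lower genes, 6 are described. Plac8 had 12.6 and 2.48 TPM in vBM-MSCs and 0, 1.72 and 0 in fBM-MSCs, but 182 to 411 in A-MSCs and 384 to 389 in P-MSCs. Its log2 fold change was −2.48 ± 0.72 (SE, edgeR adjusted p = 0.0295) against the mean and 3.61 against fBM-MSCs (adjusted p = 0.0306). The first was −0.59 without fBM-MSC replicate 2 and −1.64 and −4.25 without vBM-MSC replicates 2 and 1, with adjusted p from 9.46e-04 to 0.941 over 15 refits. With the replicate block the call of Plac8 was lost (edgeR adjusted p = 0.065), as in DESeq2's Wald test (adjusted p = 0.106). Tll1, a procollagen C-proteinase, had 3.69 and 5.25 TPM in vBM-MSCs, 2.42 to 6.18 in fBM-MSCs, 11.2 to 17.5 in A-MSCs and 65.4 to 78.2 in P-MSCs (−1.96 ± 0.30, adjusted p = 9.25e-04). Tmem171 (−2.52 ± 0.37, adjusted p = 7.82e-04) and Ttc7b (−1.91 ± 0.37, adjusted p = 0.00368) were below all 9 other libraries. Gatm, an enzyme of creatine synthesis (−3.59 ± 0.87, adjusted p = 0.0128, range 1.24e-06 to 0.0937), and Nek2, a mitotic kinase (−1.95 ± 0.44, adjusted p = 0.00901, range 5.55e-06 to 0.078), lost the call without vBM-MSC replicate 1 alone. Without vBM-MSC replicate 2 the value of Gatm was −5.67. Nek2 had 2 and 2.6 TPM in vBM-MSCs, 1.26 to 5.29 in fBM-MSCs, 12.6 to 13.8 in A-MSCs and 17.6 to 20.6 in P-MSCs, with −0.24 against fBM-MSCs (adjusted p = 0.787).

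The 10 highest vBM-only regions were distal to the start sites of their nearest genes. The highest of all (chr2:92845010-92845898, fold 19.9, 53 reads) lay 69.6 kb upstream of Syt13, a synaptotagmin with mean TPM of 1.92 in vBM-MSCs and 13.1 in fBM-MSCs (−0.30 ± 0.53, SE, edgeR adjusted p = 0.741). The next 2, both with a fold of 18, lay 454 kb from Mir6370 (chr6:20008479-20009176) and in an intron of Bms1 (chr6:118408491-118409239), a ribosome assembly gene that did not pass the test (−0.03 ± 0.12, adjusted p = 0.893). Of the 10 highest regions, 5 had a nearest gene that was tested, and 2 of those genes were higher, beside 12.6% of all genes. Npy1r, a neuropeptide Y receptor 67.8 kb away (fold 15.8), was at 1.45 ± 0.37 against the mean (adjusted p = 0.0165), with a mean TPM of 3.26 that lay below the 3.66 of P-MSCs and above the 2.02 of A-MSCs and 0.22 of fBM-MSCs. Arnt2, a bHLH-PAS factor with the region in its intron (chr7:84361026-84361654, fold 15.5), was at 0.91 ± 0.2 (adjusted p = 0.00786). The region near Ccdc68 (fold 15.8) had an adjusted p of 0.603, and those near Kcna5, Grip1, 4930564D02Rik and 4930428G15Rik had mean TPM of at most 0.04 in every tissue.

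RNA of the factors whose motifs are described above was listed after the motif shares were seen. Of 8 AP-1 genes tested, 4 were higher in vBM-MSCs than the mean and 0 lower, beside 12.6% and 9.49% of all genes. Fos had 23.9 and 24.7 TPM in vBM-MSCs and 1.44 to 7.49 in all 9 others, without overlap (2.49 ± 0.21, SE, edgeR adjusted p = 1.56e-05). Fosb (1.31 ± 0.36, adjusted p = 0.0235), Junb (0.80 ± 0.20, adjusted p = 0.0153) and Jund (0.67 ± 0.22, adjusted p = 0.0492) were the rest. Fosb did not pass against A-MSCs (0.12, adjusted p = 0.882), nor Junb (0.76, adjusted p = 0.0642) and Jund (0.09, adjusted p = 0.865) against fBM-MSCs. Over 15 refits Fos kept its call, while Fosb lost it in 3 (adjusted p from 0.00605 to 0.178), Junb in 1 (0.00175 to 0.17) and Jund in 11 (0.0292 to 0.183). The replicate block gave 0.0614 for Fosb and 0.11 for Jund. Of 4 C/EBP genes tested, Cebpa was higher (2.21 ± 0.44, adjusted p = 0.00472), with 1.9 and 4.13 TPM against 2.13 to 4.28 in fBM-MSCs, 0.74 to 1.31 in A-MSCs and 0.02 to 0.15 in P-MSCs. None of 4 TEAD and 6 STAT genes passed the test against the mean. Against single tissues, Tead1 (0.75, adjusted p = 0.0388), Tead2 (0.74, 0.0293) and Tead4 (1.43, 0.0429) were higher than in fBM-MSCs, Tead2 (−0.98, 0.00237) and Tead4 (−1.22, 0.0378) were lower than in P-MSCs, and Stat3 (0.44, 0.041) was higher than in P-MSCs. Of 4 NFI genes, Nfix was higher and Nfib and Nfic were lower, and these lost their calls in 1, 10 and 2 of 15 refits. Cebpa lost its call in 1, without vBM-MSC replicate 2 (adjusted p range 1.59e-04 to 0.0775).

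Summed TPM of 4 MSC surface marker genes was 2270 to 2340 in vBM-MSCs, against 983 to 1820 in the others. Of the cells that could be carried over, erythroid (4 genes, 0 to 0.03), endothelial (5 genes, 0 to 1.19) and epithelial markers (4 genes, 0 to 0.36) were near 0 in vBM-MSCs. Of the endothelial genes, Cdh5, Emcn and Pecam1 had a vBM-only region, and none of the 4 tested was called in either direction. Macrophage markers (8 genes) summed to 21.8 to 42.0 TPM in vBM-MSCs, 36.2 to 49.3 in fBM-MSCs, 15.3 to 24.5 in A-MSCs and 9.13 to 12.2 in P-MSCs. Muscle markers (6 genes) summed to 55.7 and 496 in vBM-MSCs, 9.24 to 20.5 in fBM-MSCs and 716 to 1270 in the rest, and neural crest and glial markers (5 genes) to 6.47 and 17.3 in vBM-MSCs, 18.9 to 56.0 in fBM-MSCs and 0 to 0.97 in the rest, with the 1 tested member higher than the mean. Their part in the results above was not tested. Csf1r, the macrophage growth factor receptor and the 1 macrophage marker with a vBM-only region, had 1.16 and 0.61 TPM in vBM-MSCs and was lower (−1.33 ± 0.31, SE, edgeR adjusted p = 0.0103, range 3.77e-04 to 0.0823 over 15 refits, the highest without vBM-MSC replicate 2). Of the 3 macrophage markers tested, Csf1r included, 2 were lower and 1 was higher, beside 9.49% and 12.6% of all genes, and so few tested markers allow no reading of the lists.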

How the data were processed

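RNA was measured by Smart-seq2, which does not mark strand, in 11 libraries, and open chromatin by FAST-ATAC in 4 pooled lists. Replicate 3 of the vBM-MSC RNA was not analysed here. The authors mapped RNA reads to mm10 with RSEM and STAR, and deposited expected counts, TPM and FPKM per gene, and FPKM was not used. ATAC-seq reads were trimmed by the authors (Trim Galore), mapped uniquely (Bowtie), freed of duplicates (Picard) and of blacklisted positions, and moved to the Tn5 cut site. Tool names are also in the submitters' processing notes, and versions are not given in the sources used here. The deposited MACS2 lists give, per summit, a fold enrichment ratio, a −log10 q and the summit offset. No GC or depth correction of the lists is stated, and an equal pileup passed the threshold in all 4. The background pileup recovered from the fold values was also equal, at 1.72 in all 4 lists, and the sources used here do not say why. MACS2 was run with a genome-wide and no local background.

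Here, whole pileups were recovered from the fold values (within 0.02 reads). Regions were annotated with 45756 curated RefSeq transcripts of GRCm38. Motifs, promoters (1 kb) and nearest genes (100 kb) were computed in Python 3.11.15 with pysam 0.24.0. Expected counts were rounded and tested in edgeR 4.0.16 (R 4.3.3) with TMM scaling and a tissue term, on genes with at least 1 CPM in at least 2 libraries. The median coefficient of variation between replicates was 19.8%. The scripts were tested on simulated data. DESeq2 1.42.0 and limma 3.58.1 gave alternatives. Standard errors are the log2 fold change over the root of the F statistic.

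Named genes were the 10 with the most regions, the 12 highest and 6 lowest by log2 fold change among those called, up to 8 called higher with a promoter region, and up to 4 called members of each gene list. The 10 highest regions were named too. Foxc1, Slc35e3, Gm12070, the factor families and the examples among the 45 genes were named after their values were seen. Leaving out the genes that passed the filter through the vBM-MSC libraries alone was added after the data were seen. The members and lists were chosen with earlier results of these data known. A result on an item withheld for evaluation is not reported here.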

Additional observations from a re-analysis of the deposited data

Results flagged for a closer look

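Genes that had a vBM-only region but too few reads to be tested were looked at outside the comparisons. In 3 of them both vBM-MSC libraries held reads and all 9 libraries of the other tissues held none. Zic1, with 3 regions including 1 in its promoter, had 27 expected counts in vBM-MSC replicate 1 and 86 in replicate 2, at least 174-fold above the others with 3 counts over the 9 libraries as the floor. Nrxn3, a synaptic adhesion gene with a region 17304 bp from a start site, had 6 and 21. Gm10635, with a region 94332 bp away, had 10 and 9. With 2 vBM-MSC libraries and no test, these are values only. No RNA group had 4 or more libraries, so no library was tested for standing apart.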

How the results depend on the processing

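The number of regions followed the threshold, at 1034 with a −log10 q above 10, 117 above 20 and 6110 when the other lists counted only past the threshold. The promoter share was then 0% above 20 and 4.8% for the latter, 4.5% when other lists had to cover at least 50% of a region, 1.25% with promoters of 500 bp, 3.53% with 2 kb and 4.82% with all annotated transcripts. The homeodomain difference turned from 1.47 to −0.923 percentage points above 20. The share of nearby genes higher was 31.7% above 20 (41 genes), 27.8% within 10 kb, 42.9% for promoters (36.8% without the genes that passed the filter through the vBM-MSC libraries alone), 19% for gene bodies and 17.9% with no filter on low counts (beside 9.12% of all genes). The share lower was 7.99% in DESeq2 (beside 12.2%). Leaving out 1 library in turn gave 13.3 to 24.7% higher, 3.38 to 7.01% lower and 1504 to 3171 genes called, against 2769. The lowest values came without vBM-MSC replicate 1 and the highest without fBM-MSC replicate 3. In every refit the share higher was above that of all genes, by 1.64 to 1.96 times. Leave-one-out log2 fold changes ran from −1.5 to 1.76 for Angpt2, −0.07 to 0.59 for Tjp1 and −2.67 to 5.01 for Angpt1. Of 33 named genes called, 17 kept the call in every refit. Among the 17 were Bst1, Dio3, Gdf10, Gucy2c, Pax9 and Zic4, which passed the filter through the vBM-MSC libraries alone. Each of these had 13 refits, because those without a vBM-MSC library could not test it, so its kept call is no support.

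With a replicate block the share higher was 18.6% (beside 10.7%). Deviations from the tissue mean had r = 0.124 (replicate 1) and 0.00573 (replicate 2) between vBM-MSC and fBM-MSC libraries of the same number, across genes. With 2 vBM-MSC libraries these deviations are mirror images (r = −1), so the values cannot decide whether the numbers are pairs. The numbers were not read as pairs.

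Each ATAC-seq list is pooled, so no region has an error between mice, and peaks under 7 reads could not be seen. With 2 vBM-MSC RNA libraries, 1 library can decide a call.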
